A study of Macaca fascicularis with 20 samples.

Results

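The miRNAs miR-338 and miR-219 were followed across 7 regions of visual cortex cut by ultraviolet laser from fetuses of the crab-eating macaque. They were taken by name, as every row called mir-338 or mir-219 with both arms, which gave 4 arms of 2 names out of 1656 arms listed in both tables used. All 4 passed the filter on low counts, which left 1139 arms to test. An arm is 1 of the strands cut from a miRNA hairpin, named 5p or 3p by the end it comes from. Each name had a single row, so the loci that encode miR-219 could not be told apart.

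Both miRNAs are best known from oligodendrocytes, the myelinating cells of the brain, where they rise as precursors stop dividing and repress factors that keep precursors immature. miR-338 is encoded in an intron of AATK, a kinase gene expressed in neurons, and miR-338-3p also acts in neurons, for example on mitochondrial messages in axons. The libraries come from before cortical myelination. No oligodendrocyte messages were measured in these libraries, so the label of oligodendrocyte miRNAs could not be checked against mRNA markers of that cell type.

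The ventricular zone (VZ) lines the ventricle and holds radial glia. Above it lies the outer subventricular zone (OSVZ), a second site of division that is thick in primates, and young neurons gather in the cortical plate (CP). Each was cut in area 17 and area 18, and in area 17 the OSVZ was cut as an inner part (OSVZ_17int) and an outer part (OSVZ_17ext). Replicate 1 was from embryonic day 80 and replicate 2 from day 79, which gave 2 libraries per region, with 4 of VZ, 6 of OSVZ and 4 of CP. No animal was treated or carried an altered allele according to the labels, and the number of animals was not stated, so a p-value here covers only the spread among libraries, which may be partly technical.

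Library totals ran from 3603478 to 9517217 counts. Levels are TMM-scaled CPM, a library's counts of an arm relative to its scaled total. In libraries cut from tissue, fewer cells of a type and less miRNA per cell cannot be told apart. Ligation and amplification favour some sequences, so counts of different arms do not compare as molecules. Among markers of brain, miR-9-5p was at 24314 counts or more in every library, but miR-124-3p, the best-known neuronal miRNA, had at most 19 counts in a library and was at 0 in 7 of 14, whereas miR-137-3p, another neuronal miRNA, reached 7581 counts. In VZ_18 replicate 1 the 6 arms of the erythroid list summed to 334 CPM, against 55.9 to 127.6 CPM in the other VZ libraries. It was also the highest VZ library for the liver and muscle list (88.1 CPM). It was the lowest for the neuronal (27683 CPM), radial glia and progenitor (46119 CPM), astrocyte (18147 CPM) and mural and mesenchymal (923 CPM) lists. Of the neuronal sum in VZ libraries, 88.8% to 95.5% was miR-149-5p, so that sum says little about the other neuronal arms.

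miR-338 was higher in the cortical plate than in either germinal zone, on both arms. miR-338-3p, the arm with the reported neuronal and oligodendrocyte targets, was at 167.5 and 291 CPM in CP_17 (replicates 1 and 2) and at 215 and 603 CPM in CP_18. In VZ it was at 44.9 and 10.8 CPM in area 17 and at 109 and 127.8 CPM in area 18. In OSVZ it was lowest at 25.8 CPM and highest at 99.5 CPM, with a median of 41.8 CPM over 6 libraries. The lowest CP library was above the highest VZ and the highest OSVZ library, as for 10.1% and 5.71% of all tested arms.

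The 5p arm showed the same split with less spread in CP. miR-338-5p, the partner strand of the hairpin, was at 209.7 and 175 CPM in CP_17 and at 210.1 and 148 CPM in CP_18. In VZ it was at 25.2 and 23.3 CPM in area 17 and at 41.9 and 57.9 CPM in area 18. In OSVZ it ran from 8.70 to 46.6 CPM with a median of 27.5 CPM. No germinal library reached the lowest CP library. Of all tested arms, 10.1% had all VZ libraries, and 5.71% all OSVZ libraries, below all CP libraries.

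miR-219 was ordered the other way on its 3p arm. miR-219-3p was at 37.0 and 107 CPM in VZ_17 and at 159 and 32.5 CPM in VZ_18. In CP it was at 17.3 and 19.5 CPM in area 17 and at 2.88 and 11.9 CPM in area 18, below all VZ libraries. All CP libraries were below all VZ libraries for 3.07% of all tested arms. OSVZ lay between, from 19.3 to 75.3 CPM with a median of 36.5 CPM, and its lowest library overlapped the highest CP library.

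miR-219-5p, the arm usually measured in oligodendrocytes, was scarce. It was at 7.96 and 17.6 CPM in VZ_17, at 7.08 and 1.02 CPM in VZ_18, at 3.22 and 0.238 CPM in CP_17 and at 8.19 and 2.67 CPM in CP_18. In OSVZ it ran from 7.81 to 17.99 CPM with a median of 11.5 CPM. The groups overlapped in all 3 pairs of zones. The lowest value rests on 2 counts, with an exact Poisson 95% interval of 0.242 to 7.22 counts, which covers counting error only.

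**Figure D1:**
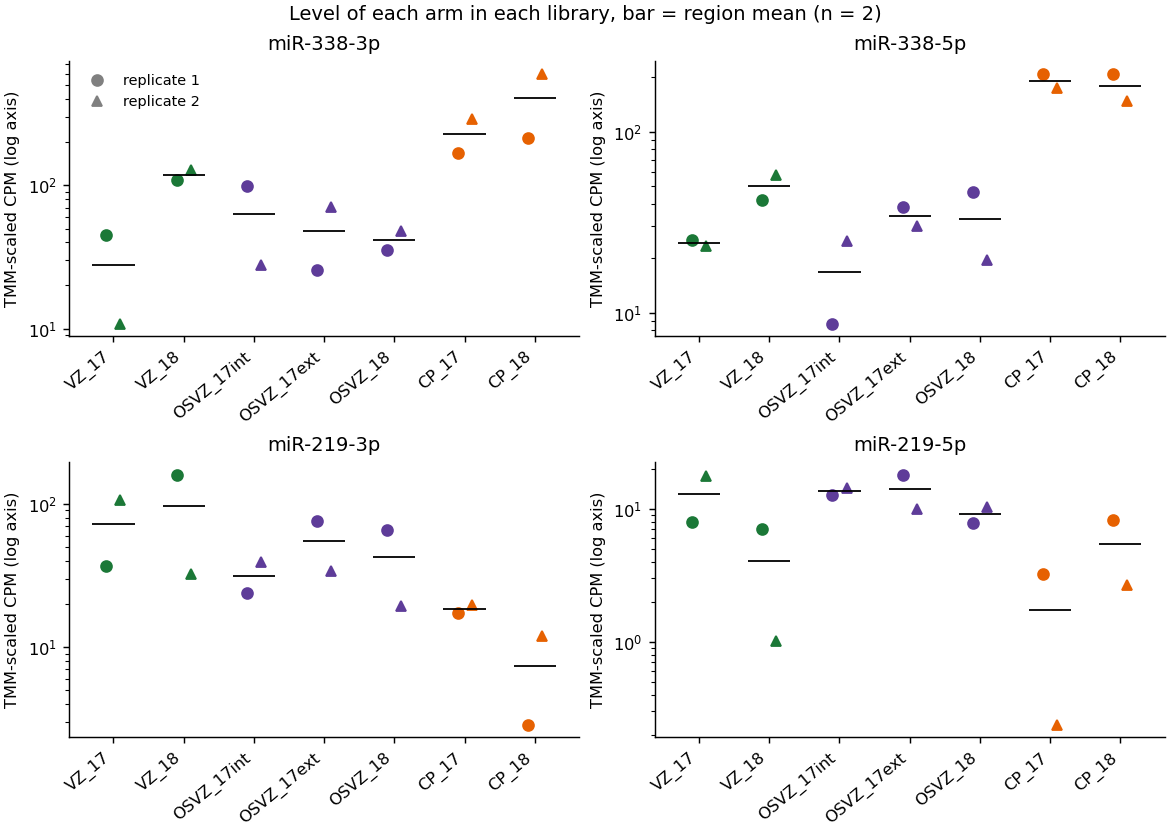
TMM-scaled CPM (log axis) of the 4 arms in each of 14 libraries, by region; circles are replicate 1, triangles replicate 2, and bars the mean of 2 libraries. Both miR-338 arms are at 148 CPM or more in all CP libraries and at 127.8 CPM or less in all germinal libraries, and miR-219-3p is at 19.5 CPM or less in all CP libraries.

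Comparing VZ with CP asks how the apical germinal layer differs from young neurons. miR-338-3p was 73.2 ± 54.6 CPM (SD, n = 4) in VZ and 319 ± 196 CPM (n = 4) in CP, a log2 difference of -2.37 ± 0.56 (SE, edgeR quasi-likelihood test, adjusted p = 0.00426). miR-338-5p was 37.1 ± 16.2 CPM in VZ and 186 ± 30.03 CPM in CP, a log2 difference of -2.41 ± 0.54 (adjusted p = 0.00271). miR-219-3p was 83.9 ± 60.7 CPM in VZ and 12.9 ± 7.40 CPM in CP, a log2 difference of 2.80 ± 0.72 (adjusted p = 0.00953). So the miRNAs that rise together in maturing oligodendrocytes were called in opposite directions here. miR-219-5p had 8.41 ± 6.86 CPM in VZ and 3.58 ± 3.34 CPM in CP and did not pass (1.47 ± 1.15, adjusted p = 0.476).

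Of 1139 arms tested, 7.37% were called in VZ against CP: 4.74% were called lower in VZ, against 2 of the 4 arms here, and 2.63% were called higher, against 1 of 4. Arms whose VZ libraries all lay below all CP libraries made up 10.1% of those tested, and the reverse 3.07%. Matching libraries by set and area, miR-338-3p was lower in VZ in 4 of 4 pairs, by -4.74 to -0.98 on the log2 scale, and miR-338-5p in 4 of 4, by -3.05 to -1.35. miR-219-3p was higher in 4 of 4 pairs, by 1.09 to 5.74, and miR-219-5p in 2 of 4. The 4 pairs come from 2 sets, and libraries of a set correlate, so they are not independent replicates. Here and for OSVZ against CP, the share of all arms with the same direction in 4 of 4 pairs was not computed.

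The call of miR-219-3p ended without CP_17 replicate 1 (adjusted p = 0.063), CP_18 replicate 1 (0.0984) or VZ_18 replicate 1 (0.0779), each left out in turn. VZ_18 replicate 1 and VZ_17 replicate 2 hold its 2 highest levels, so a smaller difference without both (1.79 ± 0.73, adjusted p = 0.14) follows from their choice. The calls of miR-338 ended without VZ_18 replicate 1 for the 5p arm (-2.04, adjusted p = 0.0534) and without that pair for the 3p arm (-1.70 ± 0.58, adjusted p = 0.0501). In VZ_18 replicate 1 the erythroid sum was high and the sums of several other lists were low, as given above. The part of either in these differences was not tested.

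The OSVZ was then set against CP, to ask whether its progenitors differ from young neurons in the same arms. miR-338-3p was 51.15 ± 28.8 CPM in OSVZ (n = 6), a log2 difference of -2.65 ± 0.51 from CP (adjusted p = 0.000458). miR-338-5p was 28.1 ± 13.5 CPM in OSVZ, a difference of -2.72 ± 0.50 (adjusted p = 0.000285). Of all arms tested, 6.32% were called here, 4.21% were called lower in OSVZ and 5.71% had all OSVZ libraries below all CP libraries, and both miR-338 arms were among each. Both were lower in 4 of 4 matched pairs, the 3p arm by -3.64 to -1.72 and the 5p arm by -3.51 to -2.17. These calls held without any single library, where the highest adjusted p was 0.016 (3p) and 0.0307 (5p). The comparisons of VZ and of OSVZ with CP share the 4 CP libraries.

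miR-219-3p was 42.9 ± 22.8 CPM in OSVZ and did not pass against CP (1.80 ± 0.68, adjusted p = 0.127, higher in 4 of 4 pairs). It passed with DESeq2 (1.97, adjusted p = 0.015), with only arms of at least 10 CPM (2.04, adjusted p = 0.0473), without VZ_17 replicate 1 (1.83, adjusted p = 0.0368) and without VZ_18 replicate 1 and VZ_17 replicate 2 (2.01, adjusted p = 0.0221). The sum of both miR-219 arms, a different quantity from either arm, also passed with edgeR (1.97, adjusted p = 0.0322). In 18 settings the miR-219-3p difference stayed uncalled, with edgeR adjusted p up to 0.534 without a single library and 0.217 otherwise. VZ libraries are not in this comparison, so leaving them out acts only through the shared fit. miR-219-5p was 12.2 ± 3.62 CPM in OSVZ and did not pass (2.20 ± 1.16, adjusted p = 0.369, higher in 3 of 4 pairs). It passed with DESeq2 (2.36, adjusted p = 0.0182), which called 120 of 1139 arms in this comparison. Higher arms were 2.11% of those tested by edgeR, and 2.72% had all CP libraries below all OSVZ libraries, which neither miR-219 arm did.

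**Figure D2:**
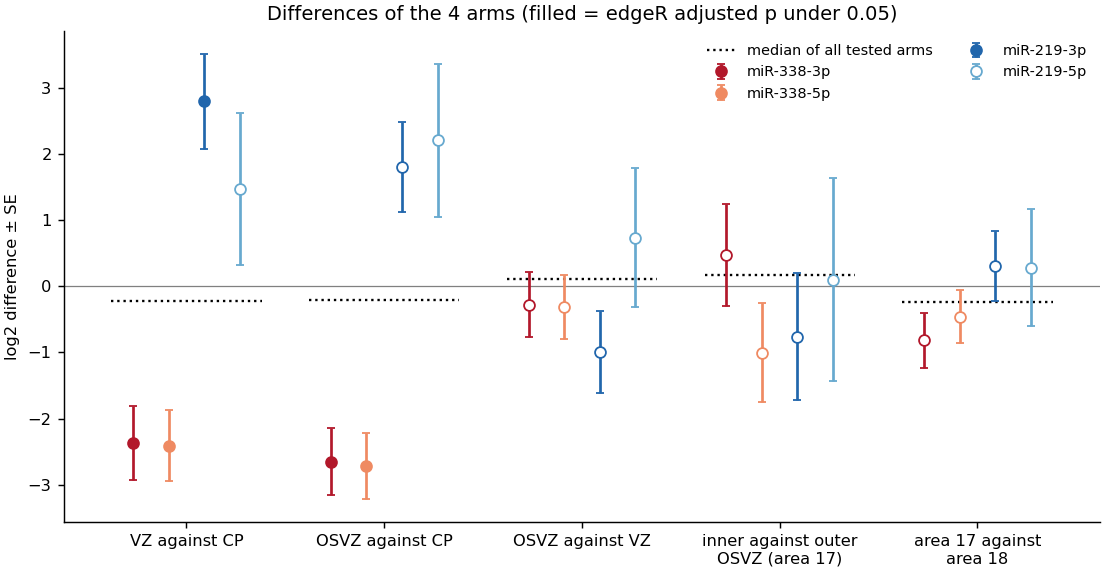
Log2 differences of the 4 arms with standard errors in 5 comparisons, filled where the edgeR adjusted p was under 0.05; dotted lines are medians of all 1139 tested arms. Both miR-338 arms lie between -2.72 and -2.37 in both comparisons with CP, and of miR-219 only the 3p arm in VZ against CP (2.80) is filled.

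Between the germinal layers none of the 4 arms passed. The log2 difference of OSVZ from VZ was -0.28 ± 0.49 for miR-338-3p, -0.31 ± 0.48 for miR-338-5p, -1.0 ± 0.62 for miR-219-3p and 0.74 ± 1.05 for miR-219-5p, with adjusted p from 0.538 to 0.884 by edgeR. The unadjusted p was under 0.05 for 0 of the 4, DESeq2 called 0 of them, and 0.0878% of all arms were called. Libraries of VZ and OSVZ overlapped for each arm, while 1.23% of all arms had all VZ libraries below all OSVZ libraries.

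The sublayers of the area 17 OSVZ did not separate either. miR-338-5p was at 8.70 and 24.8 CPM in the inner part and at 38.4 and 30.2 CPM in the outer part, and was lower in the inner part in 2 of 2 sets without passing (-1.0 ± 0.75, adjusted p = 0.938). miR-338-3p crossed between sets, at 99.5 and 27.6 CPM inner and 25.8 and 70.3 CPM outer (0.47 ± 0.77, adjusted p = 0.956). miR-219-3p, at 23.9 and 39.0 CPM inner and 75.3 and 33.9 CPM outer, differed by -0.76 ± 0.96, and miR-219-5p, at 12.7 and 14.2 CPM inner and 17.99 and 10.01 CPM outer, by 0.10 ± 1.53. By edgeR 0% of all arms passed in this comparison, where 46 of 1139 had an unadjusted p under 0.05 and DESeq2 called 2.

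Area 17 against area 18, averaged over the 3 zones, gave -0.82 ± 0.41 for miR-338-3p (adjusted p = 0.577), -0.46 ± 0.40 for miR-338-5p (0.791), 0.30 ± 0.53 for miR-219-3p (0.954) and 0.28 ± 0.88 for miR-219-5p (1.0), where 0.0878% of all arms passed. Without VZ_17 replicate 1 the miR-338-3p difference was called (-1.37, adjusted p = 0.0442). Within VZ, a comparison added after the values were seen, both libraries of area 18 were above both of area 17 for both miR-338 arms, as for 18.2% of all tested arms. The 3p arm differed there by -2.04 ± 0.78 (adjusted p = 0.486) and the 5p arm by -1.05 ± 0.74 (0.635), where 0.176% of all arms, or 2, passed by edgeR and 22 by DESeq2. The 3p value was -0.76 (adjusted p = 1.0) without VZ_18 replicate 1 and VZ_17 replicate 2, -1.07 without VZ_17 replicate 2 alone, and -3.75 with a call (adjusted p = 0.00978) without VZ_17 replicate 1.

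Within CP and within OSVZ, where 0% of all arms passed by edgeR (36 and 29 at an unadjusted p under 0.05, 3 and 0 by DESeq2), the area difference of miR-338-3p was -0.82 ± 0.74 and 0.42 ± 0.65 (edgeR adjusted p = 0.994 and 1.0). The area difference of miR-338-3p in VZ differed from that in OSVZ by -2.46 ± 1.01 and from that in CP by -1.22 ± 1.05, and neither test of the difference passed (adjusted p = 0.843 and 0.936). For miR-219-5p area 17 was above area 18 in VZ (2.18 ± 1.70) and below it in CP (-1.84 ± 1.64), each in 2 of 2 sets, and the difference of these differences did not pass (4.02 ± 2.40, adjusted p = 0.814). These rest on low counts, 14 and 2 in CP_17, 37 and 21 in CP_18, and 7 in VZ_18 replicate 2. Here and between the sublayers, the share of all arms with the same direction in 2 of 2 sets was not computed.

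Over all 7 regions, miR-338-3p (adjusted p = 0.00223) and miR-338-5p (0.00149) differed by the edgeR test of any difference among regions, which 5.18% of all arms passed. Neither arm of miR-219 passed (0.252 for 3p, 0.779 for 5p). For miR-338-3p the means fell from CP_18 (409 CPM) and CP_17 (229.5 CPM) to VZ_18 (118 CPM), OSVZ_17int (63.6 CPM), OSVZ_17ext (48.0 CPM), OSVZ_18 (41.8 CPM) and VZ_17 (27.9 CPM). Its libraries did not overlap between CP_17 and VZ_18 or between VZ_18 and OSVZ_17int, and overlapped between all other neighbours in that order. With 2 libraries a region such gaps are common: 23.2% of all tested arms had both VZ_18 libraries below both of CP_17, and 13.3% both of OSVZ_17int below both of VZ_18.

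The order of miR-338-5p was CP_17 (192 CPM), CP_18 (179 CPM), VZ_18 (49.9 CPM), OSVZ_17ext (34.3 CPM), OSVZ_18 (33.1 CPM), VZ_17 (24.2 CPM) and OSVZ_17int (16.8 CPM). Its gaps were on either side of VZ_18, where 25.5% of all arms had both VZ_18 libraries below both of CP_18 and 19.2% both of OSVZ_17ext below both of VZ_18. For miR-219-3p the order was VZ_18 (96.0 CPM), VZ_17 (71.9 CPM), OSVZ_17ext (54.6 CPM), OSVZ_18 (42.6 CPM), OSVZ_17int (31.4 CPM), CP_17 (18.4 CPM) and CP_18 (7.40 CPM). There, neighbours were apart only between OSVZ_17int and CP_17 and between CP_17 and CP_18, gaps that 16.2% and 17.5% of all arms had in the same direction. For miR-219-5p, from 14.0 CPM in OSVZ_17ext to 1.73 CPM in CP_17, libraries of all neighbours overlapped.

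Ratios within a library need no scaling between libraries, and were taken with 0.5 added to each count. Counts of both miR-338 arms together were 18.3, 38.05, 23.5 and 51.3 times those of miR-219 in the 4 CP libraries. In VZ the ratio was 1.56, 0.907, 0.275 and 5.53, and in OSVZ it ran from 0.689 to 2.95. Every germinal library was below the CP range. The ratio combines arms already compared above in the same libraries, so this gap is not a further result. The share of other pairs of miRNAs with such a gap was not computed. The mean log2 ratio was 0.28 ± 1.80 (SD, n = 4) in VZ, 0.59 ± 0.84 (n = 6) in OSVZ and 4.92 ± 0.67 (n = 4) in CP. VZ differed from CP by -4.65 (exact permutation p = 0.0286, two-sided) and OSVZ by -4.33 (exact permutation p = 0.00952), each the smallest p these numbers of libraries allow. Adjusted over the 9 ratio tests they were 0.129 and 0.0857, which did not pass.

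The arms of a hairpin did not keep a fixed ratio. Counts of miR-338-3p were 0.467 to 2.60 times those of miR-338-5p in VZ, 0.673 to 11.3 times in OSVZ and 0.799 to 4.08 times in CP. The highest was OSVZ_17int replicate 1, with 492 counts of 3p and 43 of 5p, and the lowest VZ_17 replicate 2, with 80 and 172. The mean log2 ratio differed between VZ and CP by -0.055 (exact permutation p = 0.971) and between OSVZ and CP by 0.25 (exact permutation p = 0.819).

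miR-219-3p exceeded miR-219-5p in 13 of 14 libraries. The exception was CP_18 replicate 1, with 13 counts of 3p and 37 of 5p. The ratio was 4.60 to 29.9 in VZ, 1.86 to 8.38 in OSVZ and 0.360 to 65.8 in CP, where the top value rests on 164 counts against 2. OSVZ differed from VZ by -1.86 on the log2 scale (exact permutation p = 0.0476), which was 0.143 adjusted over the 9 tests.

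**Figure D3:**
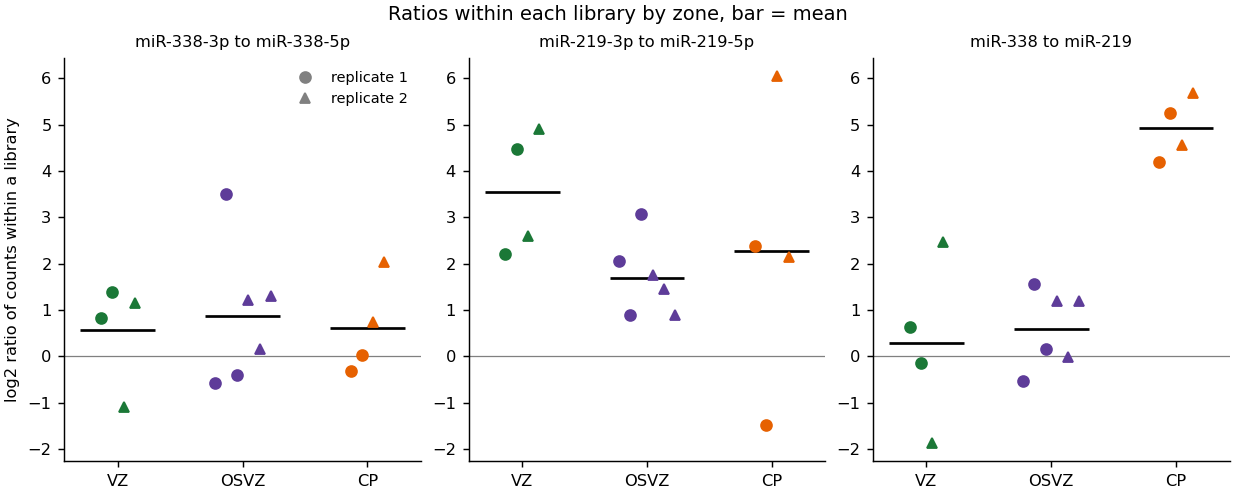
Log2 ratios of counts within each library by zone, for the arms of miR-338, the arms of miR-219, and miR-338 to miR-219; circles are replicate 1, triangles replicate 2, bars means. The miR-338 to miR-219 ratio is at 4.20 or more in all 4 CP libraries and at 2.47 or less in the germinal libraries.

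Other names at the locus of miR-338 were scarce. In human, miR-3065 lies on the strand opposite to miR-338, and miR-657 and miR-1250 lie in the same host gene. miR-3065-3p, the most abundant of their 6 arms, was at 5.55 ± 3.63 CPM in VZ, 7.08 ± 6.89 CPM in OSVZ and 4.08 ± 6.02 CPM in CP. miR-3065-5p, from the strand opposite to miR-338-3p, was at 1.25 ± 1.27 CPM in CP, where miR-338-3p was at 319 CPM. Of the 5 arms of these names that were tested, edgeR called 0 in VZ against CP and 0 in OSVZ against CP, where 0 had an unadjusted p under 0.05 and DESeq2 called 0. The SEs of these differences ran from 1.27 to 1.65.

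Other miRNAs reported to act in the oligodendrocyte lineage did not move as 1 group. Of 30 tested arms of 15 names, 2 were higher and 4 lower in VZ than in CP, and 24 did not pass, where 2.63% of all tested arms were higher and 4.74% lower. By edgeR 14 of the 30 had an unadjusted p under 0.05 (243 of all 1139), and DESeq2 called 10 (169 of all). The median log2 difference was -0.64 against -0.22 over all tested arms. The lower arms were miR-138-5p, reported to promote early oligodendrocyte differentiation and also a regulator of synapses (-3.63 ± 0.39), miR-7-3p (-2.46 ± 0.38), miR-17-3p (-1.46 ± 0.43) and miR-125a-5p (-1.30 ± 0.40). Higher were miR-29a-3p (2.46 ± 0.42) and miR-23a-3p, whose overexpression promotes myelination through lamin B1 (1.45 ± 0.37). In OSVZ against CP, 2 were higher and 3 lower of 30, where 2.11% of all tested arms were higher and 4.21% lower, with a median of -0.47 against -0.20. The higher arms were miR-29a-3p and miR-145-5p, and miR-145 is also in the mural and mesenchymal list below. There 13 arms had an edgeR unadjusted p under 0.05 (177 of all 1139), and DESeq2 called 10 (120 of all). Many of these miRNAs are also expressed by neurons or progenitors.

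Markers of other cells that CP and the germinal zones could hold were measured beside these differences. In the neuronal list 7 of 22 tested arms were lower in VZ than in CP and 0 higher (4.74% and 2.63% of all tested arms), among them miR-139-5p, miR-137-3p, miR-132-5p and miR-218-5p. In OSVZ against CP 7 of 22 were lower and 0 higher (4.21% and 2.11% of all), such as miR-137-3p (-4.27 ± 0.56) and miR-139-5p (-2.25 ± 0.34). The arms of that list summed to 27683 to 61123 CPM in VZ, 28983 to 51655 CPM in OSVZ and 50353 to 71607 CPM in CP, with miR-124 at or near 0 as given above. Most of that sum was miR-149-5p, singled out after its level was seen, which made up 67.9% to 95.5% of it and did not pass in VZ against CP (-0.09 ± 0.38). The other 23 arms summed to 2739 to 3745 CPM in VZ, 2147 to 5025 CPM in OSVZ and 12785 to 19888 CPM in CP. In the radial glia and progenitor list 4 of 10 tested arms were higher in VZ (2.63% of all), both arms of miR-92b with miR-222-3p and miR-210-3p, and in OSVZ 3 of 10 were higher than in CP (2.11% of all). The list summed to 46119 to 105456 CPM in VZ, 33948 to 60984 CPM in OSVZ and 8074 to 20958 CPM in CP. Whether neurons or progenitors carried the differences of miR-338 and miR-219 was not tested.

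In the astrocyte list 0 of 9 tested arms passed in VZ against CP by edgeR, with 3 at an unadjusted p under 0.05 and 1 called by DESeq2. Of the myeloid and lymphoid list 2 of 10 were higher (miR-155-5p, miR-223-3p) and miR-342-3p was lower in VZ, beside 2.63% and 4.74% of all tested arms. In VZ, miR-214-3p was higher among 7 mural and mesenchymal arms, and miR-204-5p, of the choroid plexus and pigment epithelium list, was lower among 3. In OSVZ against CP, where 2.11% of all arms were higher and 4.21% lower, miR-214-3p (1.71 ± 0.42), miR-145-5p (1.44 ± 0.37) and miR-155-5p (2.41 ± 0.50) were higher and miR-204-5p lower (-3.46 ± 0.41). Their part in the miR-338 differences was not tested. In VZ against CP, by edgeR 0 of 2 endothelial arms, 0 of 4 erythroid arms and 0 of 4 liver and muscle arms passed, with 0, 2 and 0 at an unadjusted p under 0.05 and 0, 1 and 0 called by DESeq2. Summed levels of the erythroid list were 55.9 to 334 CPM in VZ, 18.9 to 103 CPM in OSVZ and 27.5 to 125.8 CPM in CP. The liver and muscle list, chosen as a list that should be absent, was present. It summed to 18.1 to 88.1 CPM in VZ, 9.80 to 76.3 CPM in OSVZ and 10.4 to 94.3 CPM in CP. In it, miR-1-3p had 21 to 747 counts per library (3.05 to 69.6 CPM). These levels overlap those of the miR-219 arms, and their source was not tested.

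The arms most like miR-338-3p were sought among 378 other arms averaging 10 CPM or more, by Pearson's r of log2(CPM + 1) centred within each set over 14 libraries. They were miR-132-5p (r = 0.894), from an activity-regulated neuronal miRNA, miR-148a-3p (0.856), miR-331-3p (0.844), miR-137-3p (0.824) and let-7f-5p (0.821). miR-338-5p ranked 43 (r = 0.689) and miR-219-3p had r = -0.645. miR-132-5p was at 27.2 ± 11.8 CPM in VZ, 32.6 ± 9.55 CPM in OSVZ and 225 ± 93.2 CPM in CP. The libraries fall into zones, and r within zones was not computed.

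The arms most like miR-219-3p were miR-574-3p (r = 0.849), miR-942-5p (0.818), miR-92b-5p (0.814), a strand of the progenitor miRNA miR-92b, miR-188-5p (0.808) and miR-532-5p (0.791). miR-574-3p was at 2637 ± 1725 CPM in VZ, 1619 ± 322 CPM in OSVZ and 350 ± 136 CPM in CP. miR-92b-5p was at 504 ± 183 CPM, 211.1 ± 34.6 CPM and 12.2 ± 8.07 CPM in VZ, OSVZ and CP. These arms share libraries and scaling with miR-219-3p, and r describes them only.

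**Figure D4:**
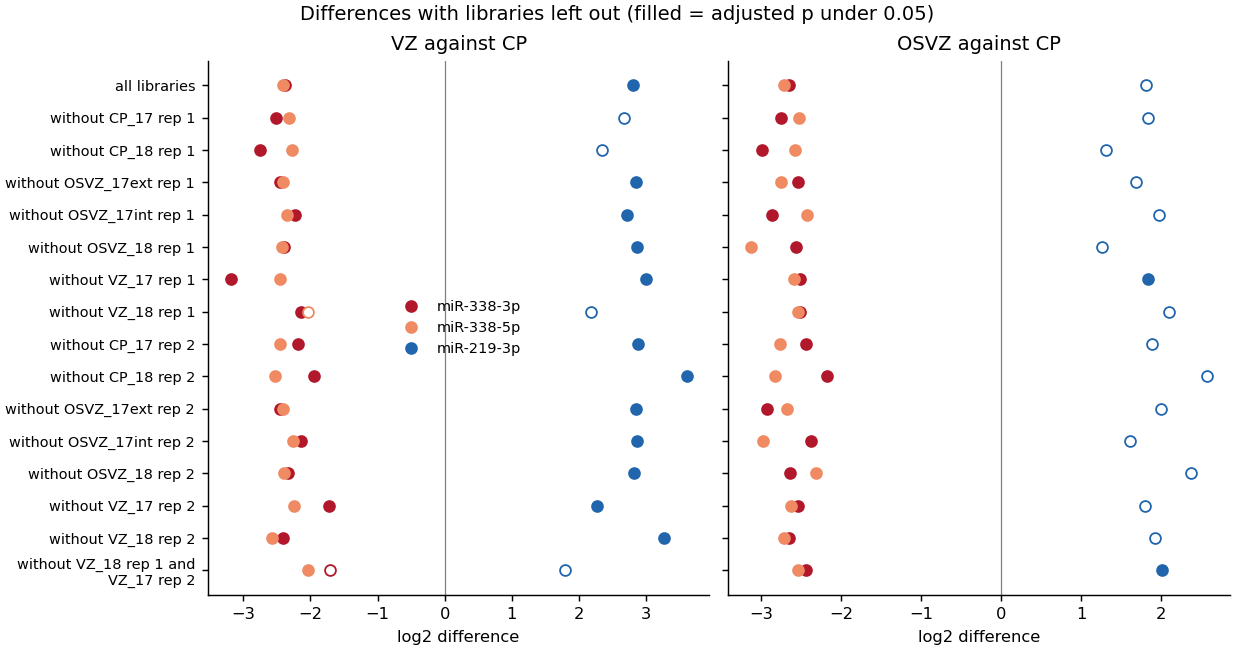
Log2 differences from CP of both miR-338 arms and miR-219-3p with each library left out in turn and with 2 VZ libraries left out, filled where the adjusted p was under 0.05. In VZ against CP miR-338-3p ranges from -3.19 to -1.70 and miR-219-3p from 1.79 to 3.60, and directions do not change.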

How the data were processed

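Small RNA libraries were made for the SOLiD platform, per the labels' protocols. For each miRNA name and arm the authors deposited raw counts of reads, without normalization. The sources used here do not name the aligner, the genome build, the annotation or the handling of reads with several matches. A column was taken as a library where its name gives a region of the labels, and the spelling of the regions gave the replicate set. Of 20 labelled samples 14 had such columns, and 12 value columns of 6 libraries, whose names match no label, were not used.

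Both tables held 828 names, or 1656 arms, and filterByExpr left 1139, all 4 arms of miR-338 and miR-219 included. The test was edgeR 4.0.16 (R 4.3.3) on TMM-scaled counts, with region means and replicate set in the model and 6 residual degrees of freedom. The estimate of spread for each arm also borrowed from the other arms, with 28.1 prior degrees of freedom. The p-values therefore rest mostly on borrowed spread. P-values were adjusted by Benjamini-Hochberg over 1139 arms, with a threshold of 0.05. VZ, OSVZ and CP were contrasts of the region means. The SE of an edgeR log2 difference is not given by the test, and was derived as its absolute value divided by the square root of F. DESeq2 1.42.0 was an alternative. Ratios were compared by exact two-sided permutation tests over libraries. These ignored set and counted each area 17 OSVZ sublayer as a library of its own. With permutation within sets, as an alternative, no ratio test passed after adjustment either. The fit was tested on simulated data. The labels give each set its own embryonic day, so set pairs the libraries. Within a set, deviations from the region means correlated between regions (median r = 0.354, 20 of 21 pairs above 0.1).

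Named arms are all arms of miR-338 and miR-219, names at their loci, up to 4 arms per marker list with the smallest p (per direction for the oligodendrocyte lineage) and the 5 arms most like miR-338-3p and miR-219-3p. Arms that share their seeds were not analysed here. The members and lists were chosen with earlier results of these data known.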

Additional observations from a re-analysis of the deposited data

How the results depend on the processing

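Without the replicate block (set as pairing), 53 arms passed in VZ against CP (84 with it), 0 in OSVZ against VZ, 0 between areas and 26 among the 7 regions (59 with it), miR-338-3p had an adjusted p of 0.0602 among regions, and miR-219-5p turned to -0.056 between OSVZ sublayers. With DESeq2, 169 arms passed in VZ against CP, 120 in OSVZ against CP (72 with edgeR), 28 in OSVZ against VZ, 2 between sublayers and 16 between areas (1 with edgeR), and in OSVZ against CP miR-219-3p (1.97) and miR-219-5p (2.36) passed. With arms summed, miR-219 passed in VZ against CP (2.70) and OSVZ against CP (1.97), and gave -0.73 in OSVZ against VZ, -0.67 between sublayers and -0.082 between areas of VZ, while miR-338 gave -0.22 between sublayers. At 10 CPM or more, miR-219-3p passed in OSVZ against CP (2.04). DESeq2 size factors, library totals, the 10 CPM minimum and sums per set and zone each left 0 calls in OSVZ against VZ, and sums per set and zone 41 in OSVZ against CP. Without a filter miR-219-5p was -0.0077 between sublayers and 11 arms passed between areas, and with library totals it was -0.019 between areas.

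Leaving out single libraries, or VZ_18 replicate 1 with VZ_17 replicate 2, gave these ranges. In VZ against CP, miR-219-3p ran from 1.79 to 3.60, miR-338-3p from -3.19 to -1.70, miR-338-5p from -2.58 to -2.03, miR-219-5p from 0.44 to 2.48 and calls from 53 to 120. In OSVZ against CP, miR-219-3p ran from 1.25 to 2.57, miR-219-5p from 1.63 to 3.30 and calls from 44 to 125. In OSVZ against VZ, miR-219-3p ran from -1.61 to 0.21, miR-338-3p from -0.83 to 0.68, miR-338-5p from -0.73 to 0.080 and calls from 0 to 24. Between sublayers, miR-219-5p ran from -0.90 to 0.62, miR-338-3p from -0.97 to 1.32, miR-338-5p from -2.37 to -0.31, miR-219-3p from -1.53 to -0.070 and calls from 0 to 6. Between areas, miR-219-3p ran from -0.022 to 0.96, miR-219-5p from -0.48 to 0.78, miR-338-3p from -1.37 to -0.36 and calls from 0 to 24. Between areas in VZ alone, miR-219-3p ran from -1.37 to 1.34, miR-219-5p from 0.80 to 3.57 and calls from 0 to 26. Among the 7 regions the adjusted p of miR-219-3p ran from 0.0223 to 0.579 and calls from 45 to 125. The log2 ratio of the miR-338 arms ran from -0.37 to 0.50 in VZ against CP, from -0.25 to 0.59 in OSVZ against VZ and from -0.28 to 0.72 in OSVZ against CP, that of the miR-219 arms from -1.83 to 0.67 in OSVZ against CP, and miR-338 to miR-219 from -0.96 to 1.05 in OSVZ against VZ. The cause of these shifts was not tested.

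TMM put the median of all tested arms at -0.22 in VZ against CP, DESeq2 size factors at 0.023 and library totals at 0.21. Relative to that median, miR-338-3p was at -2.15, -2.11 and -2.13, and miR-219-3p at 3.02, 3.04 and 3.26. A DESeq2 test among the 7 regions was not run. Low counts limit miR-219-5p most, with 2 counts in a CP library.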
